A study of Mus musculus with 2 samples.

Results

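The genes described here encode 38 components of the lysosome, the acidic compartment in which cells break down proteins, lipids and sugars. They were chosen by symbol from the 32285 genes of the deposited matrices, and all 38 were present in both. They comprise 18 hydrolases, 3 activators or precursors (Psap, Gm2a and Grn), 8 membrane proteins, the transcription factor gene Tfeb and 8 subunits of the V-ATPase. Single-cell RNA sequencing with the 10x Genomics 3′ kit had been applied to cells labelled as microglia-like from the central nervous system of mice, in 1 library labelled Cx3cr1-/+ (heterozygous) and 1 labelled Cx3cr1+/+ (wild type). The series set progeny of Cx3cr1 haplo-insufficient blood-forming stem and progenitor cells beside progeny of wild-type ones. Cx3cr1 encodes the receptor for fractalkine, a chemokine made by neurons. Per the labels' protocols, GFP+ and GFP- donor cells came by sorting from the Lin- (lineage-negative) pool of Cx3cr1-/+ mice. They were given by vein to CD45.1 mice, with a ratio of donors to recipients of 1:1. Conditioning was with busulfan, an alkylating agent toxic to blood stem cells, in 4 doses of 25 mg/kg. The labels carry the same protocol for both libraries, so the donors of the wild-type library are not given in the sources used here, nor are age, sex, interval after transplantation, pooling of animals, or whether host cells were removed.

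The heterozygous library held 17828344 unique molecular identifiers (UMIs, 1 per captured transcript) in 1837 barcodes and the wild-type library 22062823 in 2359. Of these, 1489 and 1949 barcodes passed the cell filters, with medians of 6880 and 6637 UMIs. The same 339 barcode sequences were listed in both libraries, and they made up 17.1% and 10.2% of the kept cells. The label went against the markers for most cells: microglia-like clusters held 15.4% and 16.8% of the libraries, monocyte-like clusters 18.5% and 30.7%, and neutrophil-like clusters 20.6% and 22.6%. Cx3cr1 itself stood at 1956 (95% interval 1894 to 2020) and 2019 (1962 to 2078) CPM (UMIs per 1000000 UMIs of the class) in the microglia-like cells. It was lower in the heterozygous library, with intervals apart, in monocyte-like (244.6 and 372 CPM), neutrophil-like (598 and 766 CPM) and NK cell-like cells (56.4 and 205 CPM). The same held in border-associated macrophage-like cells (448 and 614 CPM) and the damage-response macrophage cluster described below (894 and 1172 CPM). The microglia-like class joined a deeper and a shallower cluster, described below. Cx3cr1 was lower, with intervals apart, in the deeper one (2327 and 2505 CPM). In the shallower one it had 752 and 615 CPM, with overlapping intervals. Where the altered part of the allele lies relative to the counted 3′ end is not given in the sources used here, so these levels do not check the label. Cells with Xist and no Y-linked UMIs numbered 1054 and 230, and cells with Y-linked UMIs and no Xist 36 and 780, so each library mixed both marks in different proportions. Of the 36, 12 lay in unnamed cluster 6, where 100% of barcodes were shared between the libraries. Another 7 were neutrophil-like, 6 dendritic cell-like and 4 monocyte-like, and 5 lay in unnamed cluster 1. Microglia-like, border-associated macrophage-like and damage-response cells had 0. The part of shared barcodes in these marks was not tested. With 1 library per genotype, every difference below compares these libraries, has no replicate check and carries no test. All intervals are at 95% and cover counting error alone.

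Lysosomal hydrolases such as legumain and acid lipase work at acid pH, and the V-ATPase, a rotary pump with a membrane-embedded V0 sector and a cytosolic V1 sector, supplies the protons. Membrane proteins such as Lamp1 and Lamp2 line the compartment, Npc1 exports cholesterol, and Tfeb is known as a transcription factor of lysosomal genes that binds sites with the core CACGTG. Microglia, the resident macrophages of the brain, are known for a high load of engulfed material such as myelin and dead cells.

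Since Tfeb is known to act through CACGTG, the members' promoters were searched for it. RefSeq promoters (GRCm38.p6, 250 bases before to 50 after a start site) matched 32 of the 38 members, with none for Asah1, Cpq, Npc1, Atp6v0d2, Atp6v1b2 and Atp6v1h. CACGTG, which reads the same on both strands, was found in 10 of the 32 genes (31.2%), against 8.09% of all 27025 genes in the table. The longer TCACGTGA, which contains it, was in 4 of 32 (12.5%) against 1.12%. By role, CACGTG was found in 5 of 16 hydrolases, 2 of 7 membrane proteins, 3 of 5 pump subunits and 0 of 3 activators. A match describes the letters and is no evidence of binding. The stretches below are shown because some of these genes were higher in microglia-like than in monocyte-like cells (Lgmn, Glb1, Gaa), while others differed less than 1.5-fold (Lamp1, Atp6v0b, Atp6v1a). Capitals mark CACGTG. Each runs 5′ to 3′ along the gene's own strand and ends upstream of the RefSeq start site. Against GENCODE M21 exons, 4 bases of the Atp6v0b stretch and 0 of the others were exonic. The GENCODE genes of Lgmn and Atp6v1a start farther upstream, so their stretches lay inside the annotated gene.
Lgmn, chr12:102439116-102439161 (minus strand): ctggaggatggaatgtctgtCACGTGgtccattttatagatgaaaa
Glb1, chr9:114401010-114401055 (plus strand): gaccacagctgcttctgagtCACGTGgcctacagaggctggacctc
Gaa, chr11:119267803-119267848 (plus strand): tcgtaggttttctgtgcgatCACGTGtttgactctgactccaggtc
Lamp1, chr8:13159080-13159160 (plus strand): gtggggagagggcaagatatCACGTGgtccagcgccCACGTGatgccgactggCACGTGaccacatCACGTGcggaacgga
Atp6v0b, chr4:117887330-117887385 (minus strand): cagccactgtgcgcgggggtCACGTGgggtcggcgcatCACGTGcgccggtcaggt
Atp6v1a, chr16:44139365-44139410 (minus strand): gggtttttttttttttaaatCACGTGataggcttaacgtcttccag

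The 38 genes together supplied 0.915% of the UMIs of kept cells in the heterozygous library and 0.88% in the wild-type library. Their share was highest in the macrophage classes: 1.42% and 1.39% in microglia-like cells, 1.37% and 1.20% in border-associated macrophage-like cells, and 1.59% and 1.30% in a cluster led by Gpnmb, Spp1 and Apoe, called here the damage-response macrophage cluster. It was 0.997% and 0.959% in classical monocyte-like cells, 0.859% and 0.886% in patrolling monocyte-like cells, and 0.872% and 0.814% in dendritic cell-like cells. NK cell-like cells had 0.216% and 0.234%. The endothelial-like cluster, outside these classes, had 0.736% and 1.20%. In its wild-type cells hydrolases took 0.506% and pump subunits 0.452% of UMIs, above each macrophage class of that library. In its heterozygous cells they took 0.276% and 0.271%. This cluster held barcodes rich in Acp5, described below, and their part in these shares was not tested. The roles were not spread alike over the classes. Hydrolases took 0.478% of UMIs in microglia-like cells of both libraries and 0.163% and 0.159% in monocyte-like cells, whereas the pump subunits took 0.226% and 0.213% in the former and 0.197% and 0.189% in the latter. After each cell was thinned to 2000 UMIs, the median cell had 0.45% of its UMIs in hydrolases in microglia-like cells of either library. It was 0.15% in classical and in patrolling monocyte-like cells of either library. For pump subunits the thinned median was 0.2% in microglia-like cells of either library.

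**Figure D1:**
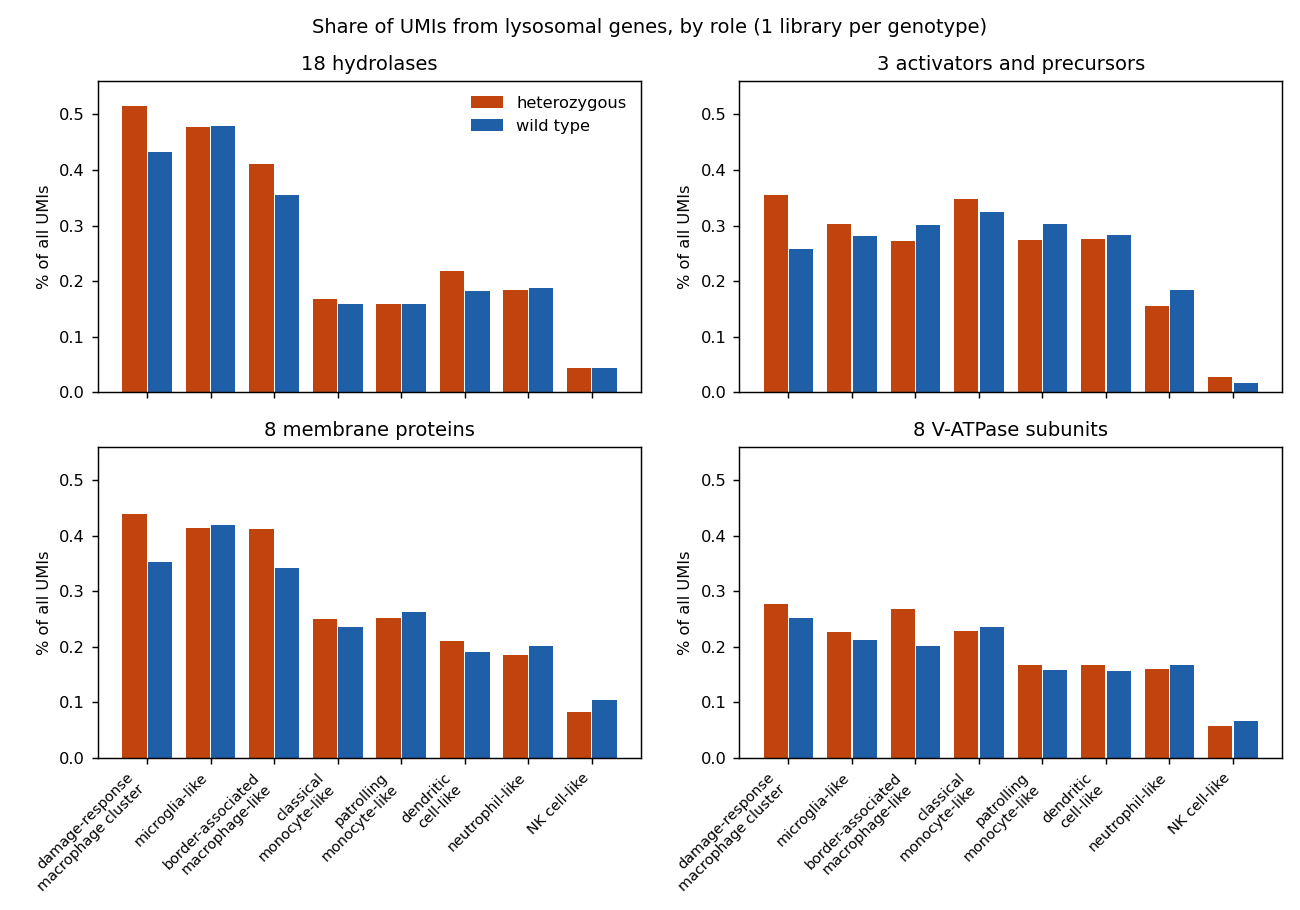
Bars give the percent of all UMIs of a cell class that came from the genes of each role, in the heterozygous (orange) and wild-type (blue) library, with 1 library per genotype and no error bar. The hydrolase and membrane protein panels step down from the 3 macrophage classes to the monocyte-like classes. The pump panel puts classical monocyte-like cells (0.229% and 0.235%) level with microglia-like cells (0.226% and 0.213%). Patrolling monocyte-like cells are lower there (0.168% and 0.157%).

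The first comparison set microglia-like against monocyte-like cells (classical and patrolling together) within each library. A gene was counted where it was at least 1.5-fold apart in the same direction in both libraries, among genes with at least 50 UMIs and a mean of at least 20 CPM. Of 34 members that passed this minimum, 19 were higher in microglia-like cells and 3 lower, against 17.7% and 16.5% of the 5579 genes measured. The median log2 ratio was 0.78 for the members and -0.02 for all measured genes. Gla, Cpq, Mcoln1 and Atp6v0d2 lay under the minimum. TMM or median-of-ratios scaling lowered these log2 ratios by 0.16 to 0.21 for every gene. Summed neutrophil markers moved with this contrast, at 3956 and 3942 CPM in microglia-like cells and 1689 and 2630 CPM in monocyte-like cells, and their part in the result was not tested. Sex marks differed between the classes in the wild-type library, with Xist alone in 91 and a Y mark alone in 26 microglia-like cells against 9 and 350 monocyte-like cells. In the heterozygous library these numbers were 118 and 0 against 229 and 4. No sex mark was seen there in 111 microglia-like and 43 monocyte-like cells. The log2 ratios in that library are those given first in each pair below, and the part of the sex marks in the ratios was not tested.

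Hydrolases made up most of the difference, with 13 of 16 measured genes higher and 1 lower. Lgmn (legumain, a protease that cuts after asparagine) had 2075 CPM in microglia-like and 270.5 CPM in monocyte-like cells of the heterozygous library. It had 2115 and 237 CPM in the wild-type library. The levels of the 2 classes lay far apart in both libraries, with log2 ratios of 2.94 (2.82 to 3.06) and 3.16 (3.06 to 3.25). Naglu, an enzyme of heparan sulfate breakdown, had 59.5 against 11.7 CPM and 59.6 against 7.39 CPM, with log2 ratios of 2.34 (1.74 to 2.98) and 3.01 (2.46 to 3.60). Pld3, a phospholipase D family member with nuclease activity, had 116 against 21.4 CPM and 87.3 against 13.1 CPM. Glb1 (beta-galactosidase) had 38.1 against 10.1 CPM and 51.1 against 12.4 CPM. In each of these genes both libraries put microglia-like cells above monocyte-like cells with intervals that left out 1.

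The other 9 higher hydrolases were Tpp1, Gaa, Hexa, Galc, Man2b1, Asah1, Gusb, Ppt1 and Acp2. Their log2 ratios averaged over both libraries ran from 0.74 for Acp2 to 1.96 for Tpp1, a tripeptidyl peptidase. The substrates of this group are diverse: Gaa cuts glycogen, Hexa gangliosides, Galc the galactosylceramide of myelin, Man2b1 mannose chains, Asah1 ceramide, Gusb glucuronides and Ppt1 palmitate on proteins. Neu1 (sialidase) was within 1.5-fold in both libraries. Lipa (acid lipase) was above 1.5-fold in the heterozygous library alone, at 113 against 73.6 CPM, and had 92.0 against 92.0 CPM in the wild-type library. The exception in direction was Acp5 (tartrate-resistant acid phosphatase), named after its values were seen, with 32.4 against 84.5 CPM and 27.7 against 98.7 CPM. Monocyte-like cells were therefore higher for this one hydrolase in both libraries.

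The activators split. Grn (progranulin, a growth factor precursor processed in lysosomes) was higher in microglia-like cells, with 1020.0 against 353 CPM and 841 against 336 CPM. Gm2a, which lifts the ganglioside GM2 out of the membrane so that it can be cut, was lower, with 246 against 598 CPM and 284 against 658 CPM. Hexa, which acts with Gm2a in ganglioside breakdown, thus stood on the other side from it in both libraries. Psap, the precursor of the saposins that activate sphingolipid hydrolases, had 1754 against 2134 CPM and 1688 against 2115 CPM, under 1.5-fold in either library.

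Among membrane proteins, 5 of 7 measured genes were higher in microglia-like cells and 0 lower. Npc1 had 87.7 against 31.1 CPM and 66.0 against 32.8 CPM. Scarb2, the receptor that carries glucocerebrosidase to lysosomes, had 186 against 80.5 CPM and 167 against 78.9 CPM. Cd68, a glycoprotein used as a marker of phagocytes, had 585 against 305 CPM and 552 against 282 CPM. Laptm5, a membrane protein of blood-derived cells, had 1852 against 1049 CPM and 1967 against 1124 CPM, and Tmem106b was the fifth. Lamp1 and Lamp2 had log2 ratios between 0.33 and 0.55 in the 2 libraries, all positive and under 1.5-fold.

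None of the 7 measured pump subunits was higher and 1 was lower, with a median log2 ratio of -0.26. This comparison joined 2 monocyte-like classes with unlike pump shares. Pump subunits took 0.229% and 0.235% of UMIs in classical but 0.168% and 0.157% in patrolling monocyte-like cells. In microglia-like cells they took 0.226% and 0.213%. Atp6v0c was the only pump subunit called between the 2 monocyte-like classes, at levels given below. The subunits were not counted against each monocyte-like class apart. Atp6v1b2, the B subunit of the V1 sector, had 84.0 against 139 CPM and 83.5 against 129 CPM. Atp6v0c and Atp6v0b, the proteolipids of the V0 ring, and Atp6ap1, an accessory protein, had positive log2 ratios between 0.23 and 0.48. Atp6v0d1, Atp6v1a (the catalytic subunit) and Atp6v1h had negative ones between -0.56 and -0.09. The low counts for these subunits did not extend to every gene of the pump. Of 11 other measured V-ATPase genes, 5 were higher and 1 lower, led by Atp6v0a1 (63.7 against 20.6 CPM and 62.2 against 12.2 CPM) and Atp6v0a2, which encode forms of the V0 a subunit.

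**Figure D2:**
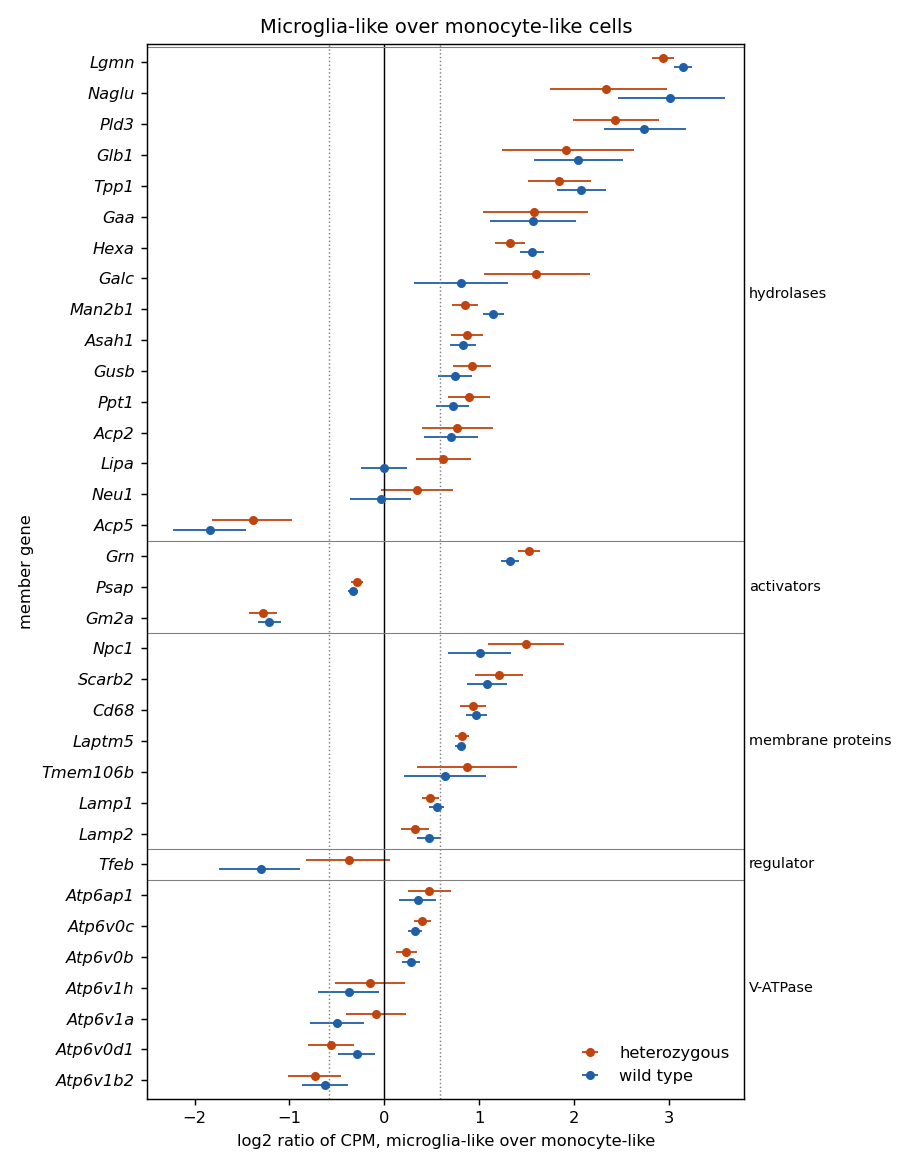
Points are log2 ratios of CPM in microglia-like over monocyte-like cells for the 34 measured members, by role, in the heterozygous (orange) and wild-type (blue) library. Bars are 95% counting intervals and dotted lines mark 1.5-fold. Most hydrolases and membrane proteins lie right of the upper dotted line, the pump subunits lie around 0, and Acp5 and Gm2a lie left of the lower one.

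Other lysosomal genes, from a list outside the 38, were counted in the same way. Cathepsins were higher in 8 of 10 measured genes and lower in 0, led by Ctsf, Ctsd and Ctsl. Other hydrolases were higher in 10 of 19 and lower in 3, and among those higher were Pla2g15, a phospholipase, and Arsb, a sulfatase. Other membrane proteins were higher in 5 of 21 and lower in 2, and other regulators higher in 4 of 7 and lower in 0.

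Detection per cell followed the levels for Lgmn. After thinning to 2000 UMIs, 93.6% (89.1% to 96.6%) and 93.9% (90.2% to 96.6%) of microglia-like cells had an Lgmn UMI, or 94.3% and 95.1% without thinning. The thinned shares were 7.69% and 3.92% in NK cell-like cells, a lymphocyte class taken as background. Before thinning, the median microglia-like cell held 4237 and 3864.5 UMIs and the median NK cell-like cell 7349 and 4811. Thinning left out 42 and 81 of the microglia-like cells and 7 and 8 of the NK cell-like cells.

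The microglia-like class joined 2 clusters of different depth, with medians of 9552 and 8735 UMIs in the deeper one and 3011 and 2531 UMIs in the shallower one. Members took 1.41% and 1.37% of UMIs in the deeper and 1.46% and 1.46% in the shallower cluster. Between them 3 of 35 measured members were higher in the deeper cluster (Npc1, Tfeb and Atp6v1b2) and 1 lower (Hexa, 454 against 694 CPM and 436 against 727 CPM). Over all 5408 measured genes 34.7% were higher and 8.08% lower. TMM or median-of-ratios scaling lowers these log2 ratios by 0.40 to 0.47. The shallow cluster carried more neutrophil transcripts, with summed markers of 11116 and 10199 CPM against 1752 and 1777 CPM, and their part in these values was not tested.

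Against dendritic cell-like cells, 24 of 35 measured members were higher in microglia-like cells and 2 lower, where 22.2% and 10.2% of 5535 genes were. The median log2 ratio was 0.81, against 0.19 over all measured genes. Lgmn (log2 1.90 and 2.39), Pld3 (1.71 and 1.85), Galc (1.98 and 1.5), Naglu (1.34 and 1.72) and Tpp1 (1.18 and 1.88) led the hydrolases. All 7 measured membrane proteins were higher, led by Npc1 (87.7 against 29.8 CPM and 66.0 against 24.2 CPM), Scarb2, Laptm5 and Lamp2. Here 3 of 7 pump subunits were also higher, namely Atp6ap1, Atp6v1a and Atp6v0b, with mean log2 ratios of 0.80, 0.74 and 0.64. With TMM scaling these were 0.60, 0.54 and 0.43. Acp5 and Gm2a were again the 2 lower genes, with Gm2a at 246 against 453 CPM and 284 against 564 CPM.

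Against neutrophil-like cells, 20 of 35 measured members were higher in microglia-like cells and 0 lower, beside 29.6% and 8.33% of 5427 genes. Their median log2 ratio was 0.98 with 0.43 over all measured genes. TMM and median-of-ratios scaling lowered the ratios by 0.47 to 0.64, leaving 12 and 11 members higher, with no recount over all genes. Lgmn, Naglu, Gaa and Glb1 led the hydrolases (13 of 17 higher), Grn was the 1 higher activator, and Scarb2, Cd68, Npc1 and Laptm5 led the membrane proteins (6 of 7). None of 7 pump subunits was called in either direction. These values depended on a cluster that carried both neutrophil and macrophage transcripts, with C1qa, C1qb and C1qc at 6906 and 6057 CPM in sum and 198 and 281 of the neutrophil-like cells. Members took 0.778% and 0.817% of its UMIs against 0.346% and 0.36% in the other neutrophil-like clusters. Against those other clusters alone, 29 of 34 members were higher and 0 lower, beside 61.9% and 10.3% of 4878 genes, and the median log2 ratio was 2.21 with 1.10 over all measured genes. Doublets and free RNA were not tested.

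The 2 monocyte-like classes differed in a few members. Of 29 measured, 2 were higher and 4 lower in classical than in patrolling monocyte-like cells, beside 10.0% and 14.2% of 5208 genes. Atp6v0c, the main ring proteolipid of the pump, had 1153 against 559 CPM and 1186 against 540.4 CPM, and Asah1 was the other higher gene. Acp5 had 38.1 against 125 CPM and 42.2 against 137 CPM. Gm2a had 429 against 745 CPM and 443 against 806 CPM, and Lipa and Acp2 were also lower. For Acp5 and Gm2a, patrolling monocyte-like cells had the highest level of the 8 classes in both libraries, with intervals apart from the next class. Psap was highest in classical monocyte-like cells, at 2653 and 2448 CPM.

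Tfeb transcripts were few. Patrolling monocyte-like cells had the highest level, 62.2 CPM (49.4 to 77.2) in the heterozygous and 66.4 CPM (57.0 to 76.8) in the wild-type library. The wild-type interval overlapped that of classical monocyte-like cells, at 48.1 CPM (38.7 to 59.1), and the heterozygous one did not overlap its counterpart at 30.3 CPM (21.1 to 42.2). Microglia-like cells had 36.5 CPM (28.5 to 46.1) and 23.8 CPM (18 to 31.0), the damage-response macrophage cluster 24.8 and 23.2 CPM, neutrophil-like cells 27.0 and 27.9 CPM, and dendritic cell-like cells 21.5 and 20.7 CPM. The intervals of these 4 classes overlapped in each library. Against monocyte-like cells as a whole, at 47.3 and 58.9 CPM, microglia-like cells were past 1.5-fold lower in the wild-type library alone. Border-associated macrophage-like and NK cell-like cells had between 6 and 11 Tfeb UMIs per library. In thinned cells a Tfeb UMI was seen in 3.21% and 2.83% of microglia-like and in 11.5% and 1.96% of NK cell-like cells, so no difference between these classes was detectable at this depth.

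**Figure D3:**
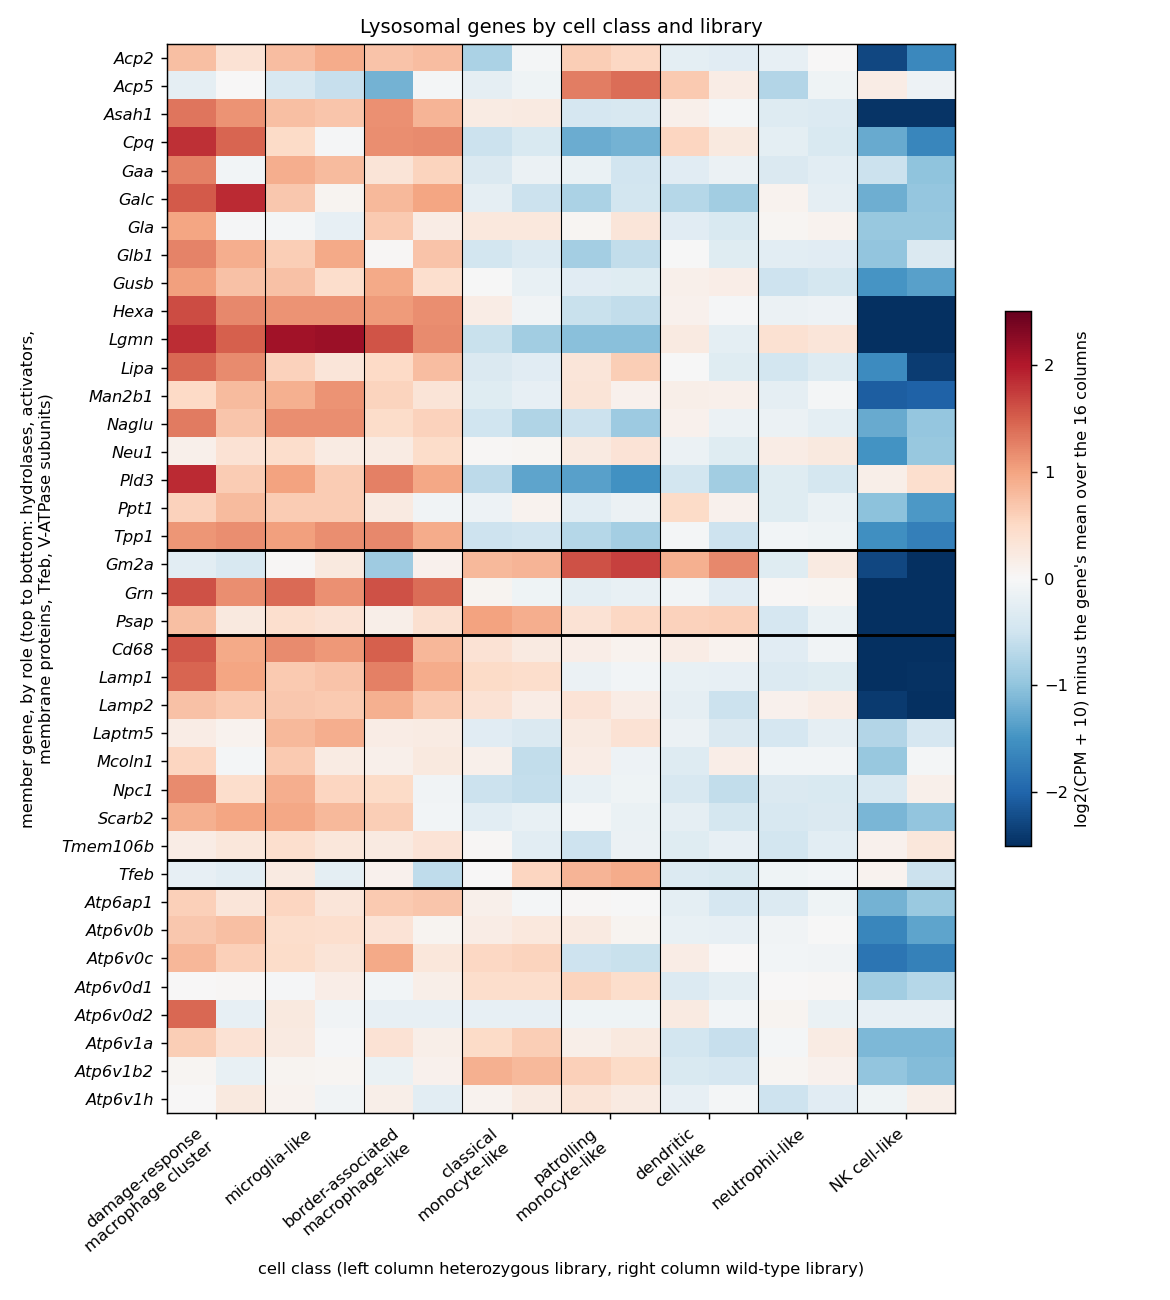
Each row is a member and each pair of columns a cell class, heterozygous library on the left and wild-type library on the right. Colours give log2(CPM + 10) minus the gene's mean over the 16 columns, saturated beyond 2.5. Most rows of hydrolases and membrane proteins are red in the 3 macrophage classes at the left, whereas Acp5, Gm2a and Tfeb are reddest in patrolling monocyte-like cells, and NK cell-like cells are blue in most rows.

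The damage-response macrophage cluster and microglia-like cells had similar levels of most members. Of 35 measured, 3 were higher in the former and 1 lower in both libraries, beside 3.08% and 9.47% of 5557 genes. Cpq (carboxypeptidase Q) had 99.3 against 32.9 CPM and 75.3 against 20.4 CPM. Galc had 96.4 against 49.1 CPM and 124 against 28.5 CPM, and Lipa, which frees cholesterol and fatty acids from lipoprotein lipids, had 214 against 113 CPM and 177 against 92.0 CPM. Each of the 3 hydrolases was therefore higher in both libraries, with log2 ratios of 1.6 and 1.88 for Cpq, 0.97 and 2.13 for Galc, and 0.92 and 0.94 for Lipa. The lower gene was Laptm5, with 1183 against 1852 CPM and 1117 against 1967 CPM. Lamp1 was higher in the 2 libraries by different amounts, log2 0.79 (0.71 to 0.88) and 0.28 (0.13 to 0.43). Against border-associated macrophage-like cells, microglia-like cells had 2 of 35 members higher (Naglu and Laptm5) and 1 lower (Cpq), beside 7.54% and 7.24% of 5693 genes. Summed neutrophil markers stood at 25774 and 10630 CPM in the border-associated macrophage-like cells (26 and 31), and their part in these values was not tested.

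The second question was how the heterozygous library compared with the wild-type library. In the main population, which joined the microglia-like, border-associated macrophage-like, monocyte-like and damage-response macrophage clusters (676 and 1003 cells), 6 of 35 measured members passed 1.5-fold in favour of the heterozygous library and 0 in favour of the wild-type library. Over all 5546 measured genes 2.36% were higher and 0.884% lower. Medians of the log2 ratios were 0.26 for the members, -0.02 for all measured genes, 0.38 for hydrolases, 0.32 for membrane proteins and 0.10 for pump subunits. Pld3 had 101 CPM against 44.0 CPM (heterozygous first here and below), with a log2 ratio of 1.20 (1.01 to 1.40). Cpq had 38.5 and 17.3 CPM (1.15, 0.84 to 1.47), and Galc 46.6 and 27.2 CPM (0.77, 0.51 to 1.04). Naglu, Npc1 and Gaa followed with log2 ratios of 0.61, 0.61 and 0.60. TMM or median-of-ratios scaling (a shift of 0.04) put these 3 under 1.5-fold and left 3 members, with no recount over all genes. Of the 6, all but Cpq, which lay under the minimum there, were among the 19 members higher in microglia-like than in monocyte-like cells.

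The make-up of the main population moved with this difference. The damage-response macrophage cluster gave 145 of 676 heterozygous and 46 of 1003 wild-type cells, and monocyte-like cells 276 and 598. With cluster shares set equal between the libraries, the members' median was 0.073 and 1 member passed 1.5-fold, with no recount over all genes. Sex marks moved with it too: 512 heterozygous cells of the population carried Xist alone and 4 a Y mark alone, against 120 and 402 wild-type cells. Among cells marked by Xist alone the classes differed further: microglia-like cells were 91 of 120 such wild-type cells and 118 of 512 heterozygous ones, and monocyte-like cells 9 and 229. There the median log2 ratio was -0.12, and Naglu, Gaa, Pld3 and Npc1 were lower in the heterozygous library, with log2 ratios of -0.81, -0.35, -0.13 and -0.10.

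Within microglia-like cells (229 and 328), 3 of 35 members were higher in the heterozygous library by this measure and 0 lower, beside 2.28% and 0.648% of 5712 genes, and the median log2 ratio was 0.09. Markers of the damage-response macrophage cluster, in which Galc and Cpq were higher, moved the same way, with their list at 19152 and 10946 CPM in sum. Xist alone marked 118 and 91 of these cells and a Y mark alone 0 and 26. The part of either in the result was not tested. Galc had 49.1 and 28.5 CPM, a log2 ratio of 0.78 (0.31 to 1.26). Cpq had 32.9 and 20.4 CPM (0.69, 0.12 to 1.26), and Tfeb 36.5 and 23.8 CPM (0.62, 0.09 to 1.15). All 3 are low in counts, from 48 to 94 UMIs per library, and after thinning to 2000 UMIs the log2 ratio of Tfeb was -0.11. Lgmn, with 2075 and 2115 CPM, and Hexa, with 510.3 and 510.6 CPM, were level between the libraries. Pump subunits had a median log2 ratio of 0.13.

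In the damage-response macrophage cluster (145 and 46 cells), 6 of 35 measured members were higher in the heterozygous library and 0 lower, beside 9.15% and 6.53% of 4120 genes. Members had a median log2 ratio of 0.27, with -0.01 over all measured genes. Gaa had 65.7 and 20.3 CPM, a log2 ratio of 1.70 (0.60 to 3.05), on 90 and 7 UMIs. Pld3 had 217 and 86.9 CPM (1.32, 0.78 to 1.91) and Gla (alpha-galactosidase A) 39.4 and 14.5 CPM (1.45, 0.13 to 3.13). Npc1 and Cd68 followed with log2 ratios of 0.84 and 0.61, and the sixth, Naglu, had an interval that included 1. The cluster's own leading genes differed in the same direction, with Gpnmb at 881 and 145 CPM and Apoe at 73199 and 56341 CPM. Its cells carried Xist alone in 141 heterozygous and 7 wild-type cells and a Y mark alone in 0 and 21. The part of either in the members' values was not tested.

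**Figure D4:**
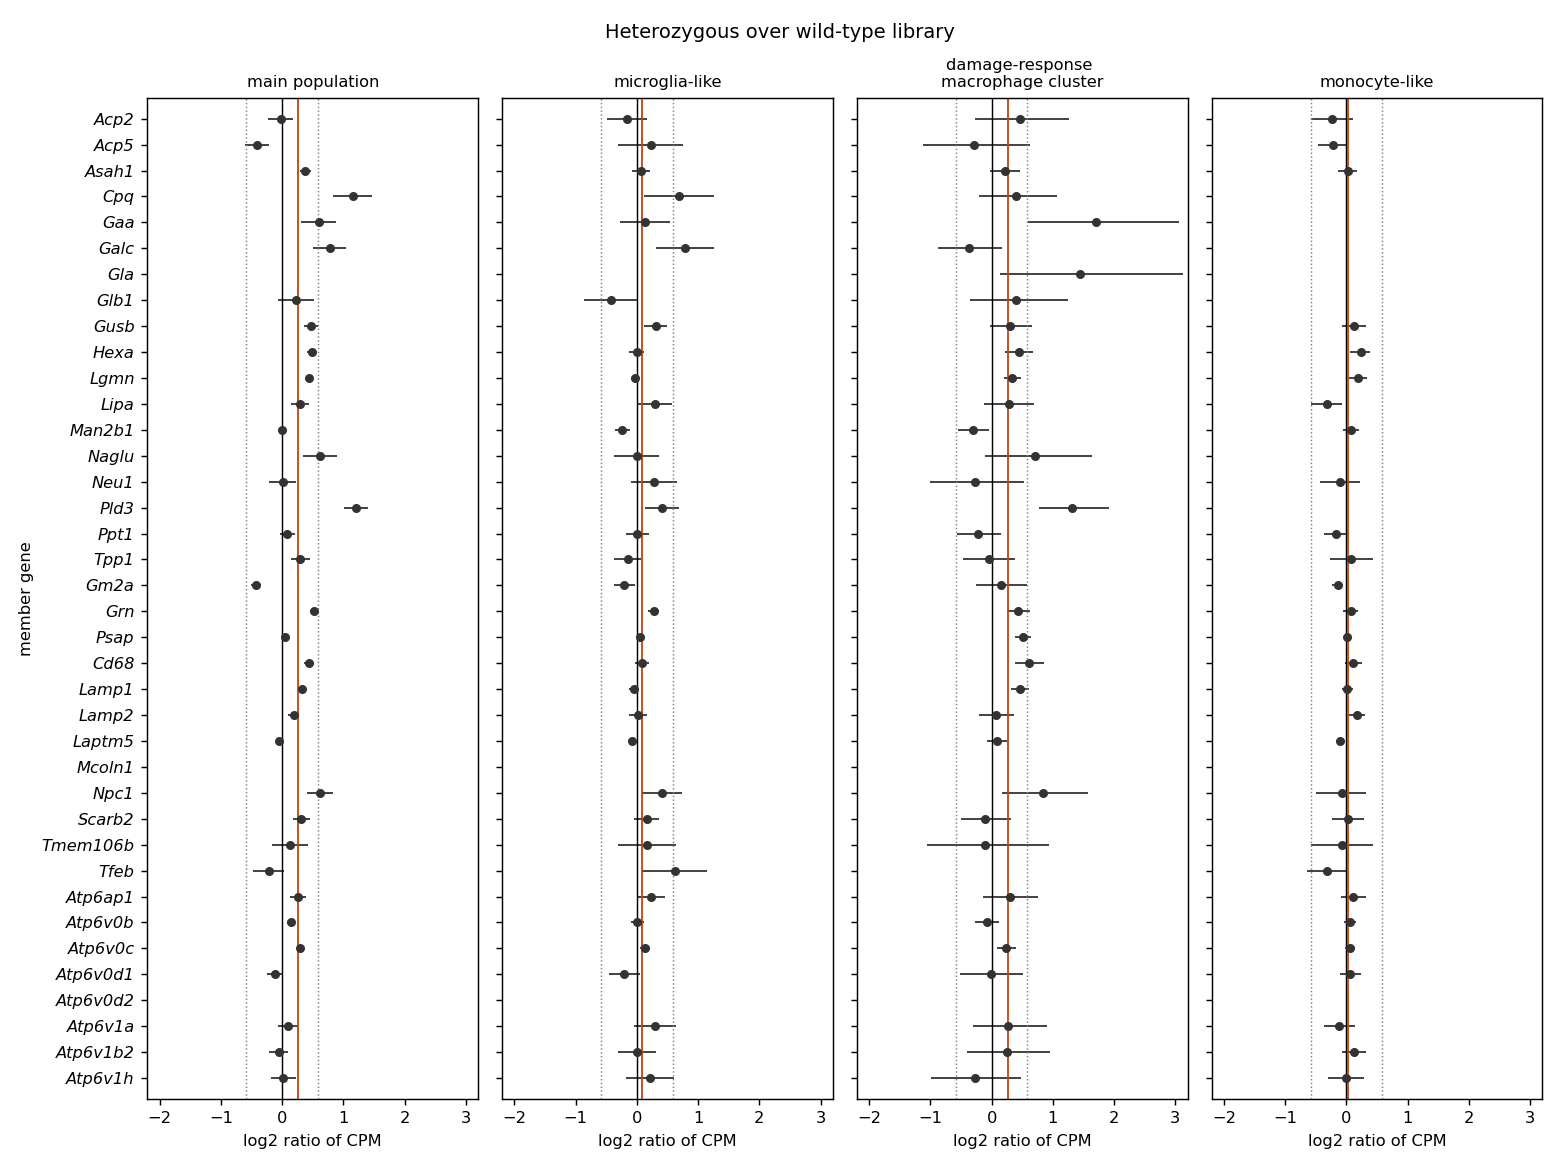
Points are log2 ratios of CPM in the heterozygous over the wild-type library for each measured member, with 95% counting intervals, in 4 populations. Dotted lines mark 1.5-fold and the orange line the median of the members. The median is 0.26 in the main population, 0.09 in microglia-like cells, 0.27 in the damage-response macrophage cluster and 0.02 in monocyte-like cells.

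In monocyte-like cells 0 of 29 measured members reached 1.5-fold in either direction, beside 1.23% higher and 0.596% lower of 5203 genes. The median log2 ratio there was 0.02, and the 3 members farthest from 0 with an interval that left out 1 were Lipa (-0.32), Hexa (0.23) and Lgmn (0.19). In dendritic cell-like cells 0 of 32 did, beside 5.07% and 3.1% of 5089 genes, with a median of 0.17 and Tpp1 (0.55), Acp5 (0.54) and Lgmn (0.47) farthest from 0. Macrophage transcripts moved with these values, with C1qa, C1qb and C1qc at 8872 and 6168 CPM in sum and Apoe at 7342 and 4540 CPM. Shared barcodes were 29.4% and 11.2% of the dendritic cell-like cells, and without them 2 members passed 1.5-fold, with no recount over all genes. The part of the macrophage transcripts was not tested. In neutrophil-like cells 0 of 30 were higher and 1 lower, beside 0.892% and 1.64% of 4820 genes, with a median of -0.07 against -0.10 over all measured genes. Summed neutrophil markers there were 250229 and 192395 CPM. The lower gene was Acp5, with 23.9 and 42.2 CPM (log2 -0.82, -1.11 to -0.54). Among neutrophil-like cells marked by Xist alone its log2 ratio was 0.68, but 41 of 43 such wild-type cells and 169 of 217 heterozygous ones lay in the C1q-carrying cluster. In border-associated macrophage-like cells 3 of 23 measured members were higher (Cd68, Scarb2 and Atp6v0c) and 1 lower (Gm2a), beside 7.46% and 10.2% of 1931 genes, with a median of 0.26, on 26 and 31 cells. The endothelial-like cluster had 2 of 25 higher and 7 lower, beside 15.4% and 8.51% of 3032 genes, with a median of -0.36, and it held 5 of the 7 barcodes rich in Acp5 described below. It had 88 and 40 cells, of which 28.4% and 47.5% were shared barcodes. Summed erythroid markers there were 13298 and 79.0 CPM and pericyte or smooth muscle markers 4719 and 932 CPM. The part of these in the values was not tested. In the main population Gm2a had 374 and 502 CPM, lower for the heterozygous library and under 1.5-fold.

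Atp6v0d1 and Atp6v0d2 encode alternative d subunits of the V0 sector, the former found in most cells and the latter known from osteoclasts and some macrophages. Atp6v0d1 was present in every class, from 59.4 CPM (NK cell-like) to 175 CPM (patrolling monocyte-like) in the heterozygous and from 67.3 to 161 CPM in the wild-type library. Atp6v0d2 was almost absent from these classes. It had 7 UMIs in 5 of 229 heterozygous microglia-like cells and 2 UMIs in the wild-type ones, which is under 4 CPM in both libraries. The damage-response macrophage cluster had 29 UMIs in 11 of 145 heterozygous cells, or 21.2 CPM, and 0 in 46 wild-type cells, where 3 counts would be 8.68 CPM. The heterozygous level there was 2.44-fold the wild-type floor of 3 counts. This figure leaves out the counting error of the 29 heterozygous UMIs and is no lower bound.

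Most Atp6v0d2 lay in 7 barcodes with at least 20 UMIs each of Acp5 and of Ctsk, a rule chosen after the values were seen. There were 5 in the heterozygous and 2 in the wild-type library, with 7787 to 96633 UMIs, in the endothelial-like cluster and in unnamed cluster 1, which lay outside every class compared above. They held 371 of 463 Atp6v0d2 UMIs (80.1%), 3124 of 5086 Acp5 UMIs (61.4%) and 3606 of 3767 Ctsk UMIs of all kept cells. The rule used Acp5 and Ctsk, so high shares of these genes follow from the selection, whereas Atp6v0d2 was not part of it. Ctsk is a collagen-cutting cathepsin, and Acp5, Ctsk, Atp6v0d2, Dcstamp and Ocstamp are genes known from osteoclasts. Dcstamp and Ocstamp UMIs were found in 6 of the 7, while C1qa had at most 2 UMIs in any of them. Markers of that cell type were in no list used here, so the cells are given no name.

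In these 7 barcodes most pump subunits stood at a higher level than in the rest of the kept cells. Atp6v0c had 5709 CPM against 857 CPM in all other kept cells, Atp6v0b 1984 against 506 CPM, Atp6v1b2 783 against 89.4 CPM and Atp6v1a 482 against 71.7 CPM. Atp6v0d2 had 1161 CPM and Atp6v0d1 138 CPM, whereas over the other kept cells they had 2.42 and 126 CPM, and Atp6ap1 was level at 122 and 116 CPM. Hydrolases and membrane proteins went both ways. Lgmn, Lamp1 and Scarb2 were lower, at 87.6 against 717 CPM, 81.4 against 673 CPM and 6.26 against 87.7 CPM. Hexa, Glb1 and Cd68 were higher, at 607 against 260 CPM, 78.3 against 21.4 CPM and 757 against 303 CPM. For 5 of the 7 the same barcode sequence was listed in the other library, with 510 to 1535 UMIs there. Each of those partners also held Acp5 (2 to 9 UMIs) and Ctsk (5 to 14 UMIs), and 2 of the 5 were among the kept cells. Whether transcripts of 1 library were assigned to the other under a shared barcode was not tested. Without all shared barcodes the members' median log2 ratio was 0.25 between the libraries in the main population and 0.78 for microglia-like over monocyte-like cells. With the 7 barcodes left out, which the rule chose for their Acp5 and Ctsk UMIs, Acp5 over all kept cells had 48.4 and 54.0 CPM, heterozygous first. These levels stood in place of 172 and 101 CPM, so that the log2 ratio of Acp5 was -0.16 in place of 0.77.

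**Figure D5:**
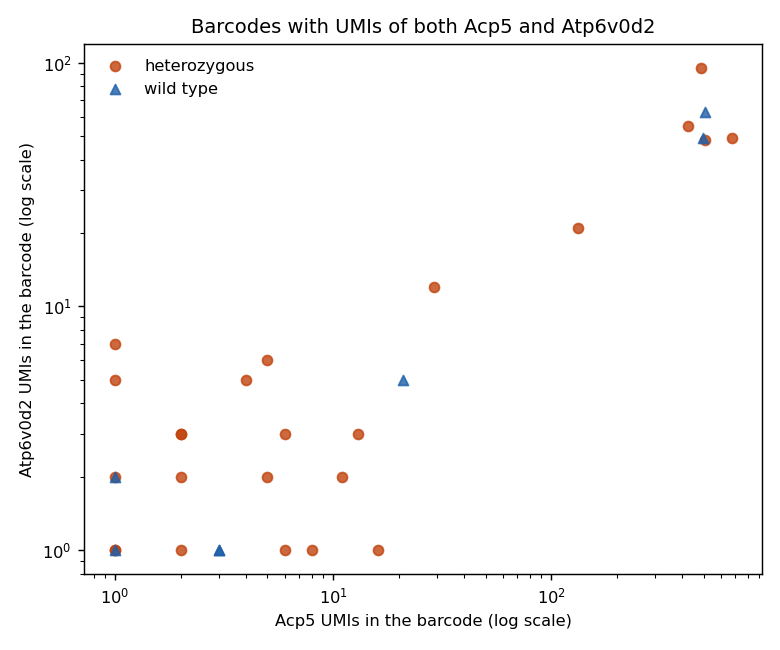
Each point is a kept barcode with at least 1 UMI of both genes, 24 in the heterozygous (circles) and 7 in the wild-type (triangles) library, with Acp5 UMIs on the horizontal and Atp6v0d2 UMIs on the vertical log axis. A group of 6 barcodes lies at the upper right with 424 to 672 Acp5 UMIs, and most others have under 10 UMIs of each gene.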

How the data were processed

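The deposited values are raw counts of UMIs per gene and barcode, not normalized. Cell Ranger 4.0 and the mm10 genome are named per the submitters' processing notes, and Cell Ranger 5.0.0 wrote the matrices per the file headers. Barcodes were kept from 500 detected genes upward, if mitochondrial UMIs stayed under 10%. No doublet caller was run. Cells of both libraries were clustered together (scanpy 1.11.5, igraph 0.11.9) on 2000 variable genes, 30 components, 15 neighbours and a Leiden resolution of 0.5. The members, other lysosomal genes, sex-linked marks and Cx3cr1 were left out of the variable genes. Clusters were named from marker lists by a scoring rule that was set after the data were seen, including a tie rule for the shallow microglia-like cluster. Of 19 clusters 2 stayed unnamed. UMIs were summed per class and library as CPM. Intervals are exact (Poisson, conditional binomial, Clopper-Pearson) and cover counting error. They were run on simulated independent counts at the depth of all kept cells. That run does not cover small classes or UMIs gathered in few cells. Per role, up to 4 members called in both libraries were named by size. Between libraries, members past 1.5-fold with an interval that left out 1 were named, or else the 3 farthest from 0. Positions are from GENCODE M21 (GRCm38). The members and lists were chosen with earlier results of these data known. Alternatives covered cell filters, shared barcodes, scaling (edgeR 4.0.16), thinning, count minimums, clustering and sex marks.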

Additional observations from a re-analysis of the deposited data

How the results depend on the processing

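Medians of the members' log2 ratios were recomputed under up to 16 alternatives. Of 144 such values, 138 stayed between the medians of the single members' lower and upper limits in the reported setting. That band has the width of a single member's interval and is no interval of the median. The opposite sign was seen in 10 of the 144. Of these 10, 9 belonged to library comparisons with a reported median from -0.069 to 0.17, whose medians ran from -0.055 to 0.28 in microglia-like, -0.050 to 0.059 in monocyte-like, -0.041 to 0.25 in dendritic cell-like and -0.29 to 0.0099 in neutrophil-like cells. In the main population the heterozygous over wild-type median was -0.12 in cells marked by Xist alone, of which 91 of 120 wild-type and 118 of 512 heterozygous cells were microglia-like, and 0.073 with cluster shares set equal between the libraries. In neutrophil-like cells it was -0.29 in cells marked by Xist alone. The microglia-like over neutrophil-like median was 0.44 with TMM scaling, 0.42 with median-of-ratios scaling and 2.21 without the C1q-carrying cluster. The deep microglia-like cluster alone and the Acp5 and Ctsk barcodes were alternatives added after seeing the data. Single members that turned sign were, for the library comparison of the main population in cells marked by Xist alone, Gaa (-0.35), Naglu (-0.81), Pld3 (-0.13) and Npc1 (-0.10), and for neutrophil-like cells so marked Acp5 (0.68). After thinning, Tfeb in microglia-like cells was -0.11 and Neu1 over dendritic cell-like cells -0.059. Atp6v1a over dendritic cell-like cells was -0.28 with no cell filter and -0.23 at a resolution of 0.25. Acp5 over all kept cells was -0.16 without the Acp5 and Ctsk barcodes. The cause was not tested in any of these. All measured genes were not recounted under the alternatives, so the member counts that follow stand without a share over all genes. The count of members higher in microglia-like cells ran from 15 to 22 over monocyte-like (where 5 were lower after thinning, against 3), 11 to 29 over neutrophil-like and 14 to 25 over dendritic cell-like cells (14 after thinning, 15 with lysosomal genes kept in the clustering). For heterozygous over wild type it ran from 1 to 8 in the main population (3 with either scaling, no cell filter or Xist-marked cells alone, the last with 6 lower), 0 to 4 in microglia-like cells 2 to 11 in the damage-response macrophage cluster, 0 to 7 in dendritic cell-like and 0 to 3 in monocyte-like cells. In neutrophil-like cells 0 to 4 were lower. Between the damage-response macrophage cluster and microglia-like cells 1 to 5 were higher. The damage-response macrophage cluster and monocyte-like cells gave no value for Xist-marked cells, since only 7 and 9 of their wild-type cells carried Xist alone. The microglia-like over monocyte-like comparison therefore has no value among Xist-marked cells. No paired analysis was possible because the groups share replicate number 1 alone.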

Other observations

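In the deeper microglia-like cluster of the wild-type library, 89 cells carried Xist alone and 14 a Y-linked mark alone, and 33 carried both. Median depths were 7411 UMIs with Xist alone and 14416 UMIs with the Y mark alone. Lgmn stood at 2628 CPM in the former and 1197 CPM in the latter, and Gm2a at 188 and 584 CPM. The median log2 ratio of the 30 members measured there was 0.54, beside 0.08 over all measured genes. The sex of donors and recipients is not given in the sources used here, and the groups are cells of 1 library with no replicate.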
